A study of Mus musculus with 12 samples.

Results

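The antiviral effectors examined here are 10 interferon-inducible genes, Mx1, Mx2, Rsad2 (viperin), Cmpk2, Samhd1, Bst2, Ifitm3, Isg20, Ifi44l and Apol9b, measured on expression arrays of mouse adipocytes. They were chosen by name, with earlier results of these data known. Each was read from its brightest probe set among those that map to its symbol alone. All 10 had exactly 1 such probe set, so they are 10 of the 22180 genes measured in this way. The adipocytes were grown from inguinal fat precursors of the genotype R26Cre/Prdm16floxEx9, which joins a Cre recombinase at the Rosa26 locus to a floxed Prdm16 allele, and every group carried this genotype. Group 4OHT received 1 uM 4-hydroxytamoxifen, a ligand that switches on inducible Cre, for 3 days during growth. Group EtOH received the ethanol vehicle for the same 3 days. Groups 4OHT_Rosi and EtOH_Rosi had the same 2 pretreatments and were then stimulated with rosiglitazone at 1 uM, which activates the nuclear receptor PPARgamma and was used to induce browning. All cells were differentiated in 10% FBS with isobutylmethylxanthine, indomethacin, dexamethasone, insulin and T3. Each group had 3 arrays, numbered 1 to 3. Cells without Cre that received 4-hydroxytamoxifen are not analysed here, so the drug, active Cre and loss of Prdm16 cannot be told apart. The labels give neither the strain of the mice nor whether the replicates were separate cultures, so each p-value rests on the spread of 3 arrays per group, and that spread may be technical.

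Type I interferons bind the receptor Ifnar1-Ifnar2, whose kinases Jak1 and Tyk2 phosphorylate Stat2. Stat2 and Irf9 belong to a complex that binds the interferon-stimulated response element in target promoters, and Irf7, itself a target, amplifies the response. The products act at different steps of infection: Mx proteins are dynamin-like GTPases that assemble on viral nucleocapsids, viperin, Cmpk2 and Samhd1 act on nucleotides, Ifitm3 and tetherin (Bst2) act at membranes, and Isg20 degrades RNA. The series title names PRDM16 and this response, and the comparisons ask how the effector genes stood after the floxed precursors had been treated.

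To show what their promoters share, the interval from 250 bases before to 50 bases after each RefSeq transcript start (build GRCm38.p6) was read for the 8 members that matched by symbol, which excludes Mx1 and Mx2, in 11 windows. The core of the interferon-stimulated response element, searched on either strand as GAAA, any 2 bases and GAAA again, was present in 4 of these 8, Rsad2, Bst2, Ifitm3 and Apol9b. Over all genes with such a window, 3.99% held it (1079 of 27025). Of the other antiviral interferon-stimulated genes listed for comparison, 12 of 22 with a window held it. Of the listed interferon receptor and signalling genes, 3 of 12 with a window did. The 4 windows that hold the core are shown 5′ to 3′ on the strand of the gene, with the bases of the response element core in capitals (for Apol9b, at the first of 2 annotated starts).
Rsad2, chr12:26456403-26456702, minus strand: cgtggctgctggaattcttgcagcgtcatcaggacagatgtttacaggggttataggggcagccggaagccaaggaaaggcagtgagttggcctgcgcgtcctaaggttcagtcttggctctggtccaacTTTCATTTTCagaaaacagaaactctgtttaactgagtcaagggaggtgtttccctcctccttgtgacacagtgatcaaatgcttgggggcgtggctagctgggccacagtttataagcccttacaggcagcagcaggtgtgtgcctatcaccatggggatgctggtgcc
Bst2, chr8:71537423-71537722, minus strand: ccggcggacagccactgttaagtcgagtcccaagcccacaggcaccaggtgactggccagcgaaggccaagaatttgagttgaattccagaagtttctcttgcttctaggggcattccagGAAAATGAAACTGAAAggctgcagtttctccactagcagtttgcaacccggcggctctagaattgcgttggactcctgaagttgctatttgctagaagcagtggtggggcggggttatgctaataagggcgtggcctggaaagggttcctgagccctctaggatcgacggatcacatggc
Ifitm3, chr7:141010695-141010994, minus strand: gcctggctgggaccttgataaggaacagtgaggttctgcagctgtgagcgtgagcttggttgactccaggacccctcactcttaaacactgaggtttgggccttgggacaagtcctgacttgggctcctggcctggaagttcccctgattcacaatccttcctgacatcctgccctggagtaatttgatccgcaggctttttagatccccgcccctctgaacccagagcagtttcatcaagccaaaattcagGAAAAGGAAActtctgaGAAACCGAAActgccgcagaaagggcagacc
Apol9b, chr15:77728822-77729121, plus strand: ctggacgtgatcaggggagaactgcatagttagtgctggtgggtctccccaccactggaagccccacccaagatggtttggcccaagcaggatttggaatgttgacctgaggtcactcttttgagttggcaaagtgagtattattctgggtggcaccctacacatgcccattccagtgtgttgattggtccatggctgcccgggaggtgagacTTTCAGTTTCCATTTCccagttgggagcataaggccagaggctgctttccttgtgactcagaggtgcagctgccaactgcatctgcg

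In Rsad2 the core lay on the strand opposite to the gene, with its outer edge 120 bases before the start. Bst2 held 2 overlapping copies, the first beginning 130 bases before the start. In Apol9b 2 overlapping copies on the opposite strand began 37 bases before the first start. Those of Ifitm3 lay after the start, at bases 3 to 12 and 20 to 29. Cmpk2, Samhd1, Isg20 and Ifi44l had none of these letters in their windows, which says nothing of sites elsewhere. The core of the gamma-activated site, TTCNNNGAA, which reads the same on both strands, was found in 4 members (Bst2, Samhd1, Ifitm3 and Isg20) and in 9.55% of all genes. In Isg20 it lay in the first of 3 windows alone, and counted by window 8.3% of all windows held it. In Bst2 and Ifitm3 it overlapped a response element core. These matches describe letters and not bound sites.

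**Figure D1:**
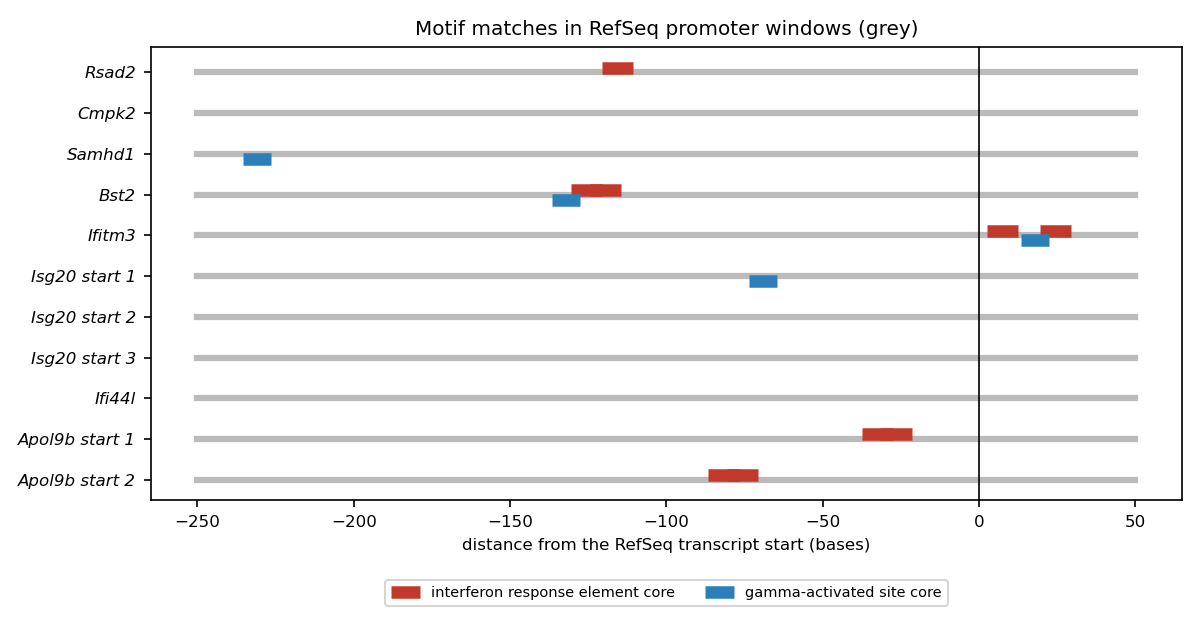
Positions of motif matches in the promoter windows of 8 antiviral effector genes, in bases from the RefSeq start (vertical line). Grey bars are the windows, red blocks the interferon response element core and blue blocks the gamma-activated site core. Rsad2, Bst2, Ifitm3 and Apol9b carry red blocks, and those of Ifitm3 lie after the start.

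The arrays gave log2 values from 3.05 to 13.91 over 41345 probe sets, with medians of 5.97 to 6.05 per array. Prdm16, the targeted gene, averaged 6.46 ± 0.13 in 4OHT and 6.63 ± 0.19 in EtOH (SD, n = 3 each), a difference that did not pass (adjusted p = 0.455). It averaged 6.65 ± 0.04 in 4OHT_Rosi and 7.37 ± 0.14 in EtOH_Rosi (adjusted p = 0.000646). It is not known here whether this probe set reads the floxed exon, so it may check the labels only in part. Ucp1 was read as a second check. It averaged 7.79 ± 0.36 in EtOH_Rosi and 5.65 ± 0.07 in EtOH, a rise of 2.14 (limma adjusted p = 1.19e-07). In 4OHT_Rosi it averaged 6.21 ± 0.10, a difference of -1.58 from EtOH_Rosi (limma adjusted p = 1.97e-05). That between 4OHT and EtOH, 0.08, did not pass (limma adjusted p = 0.867). On the third principal component (5.67% of the variance) 4OHT_Rosi 3 stood apart from the other arrays, and without it the counts of members called in the 4 comparisons of 2 groups were the same. The adipocyte markers Adipoq and Fabp4 had log2 group means of at least 10.57 and 13.54 in all groups.

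After 4-hydroxytamoxifen most of the antiviral effectors were higher, with and without rosiglitazone. Without rosiglitazone 8 of the 10 rose and 0 fell, where 2.13% of all genes rose and 1.79% fell at an adjusted p under 0.05 (limma over 22180 genes; at an unadjusted p under 0.05, 9 members were higher and 0 lower). With rosiglitazone 8 rose and 1 fell, where 4.65% of all genes rose and 3.38% fell. The members' median log2 difference was 0.98 without and 1.08 with rosiglitazone, against 0 and -0.01 over all genes. Of the members, 5 rose at least 2-fold in each comparison, namely Mx2, Rsad2, Cmpk2, Bst2 and Apol9b, where 0.243% and 0.329% of all genes did. The arrays of the groups did not overlap for 9 members, all higher, without rosiglitazone (11.2% of all genes higher and 11.7% lower), and for 8 higher and 1 lower with it (11.5% and 10.3%). The members that did not pass as higher were Ifitm3 (0.23, all 4OHT arrays above all EtOH arrays) and Isg20 without rosiglitazone, and Samhd1 and Isg20 with it.

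**Figure D2:**
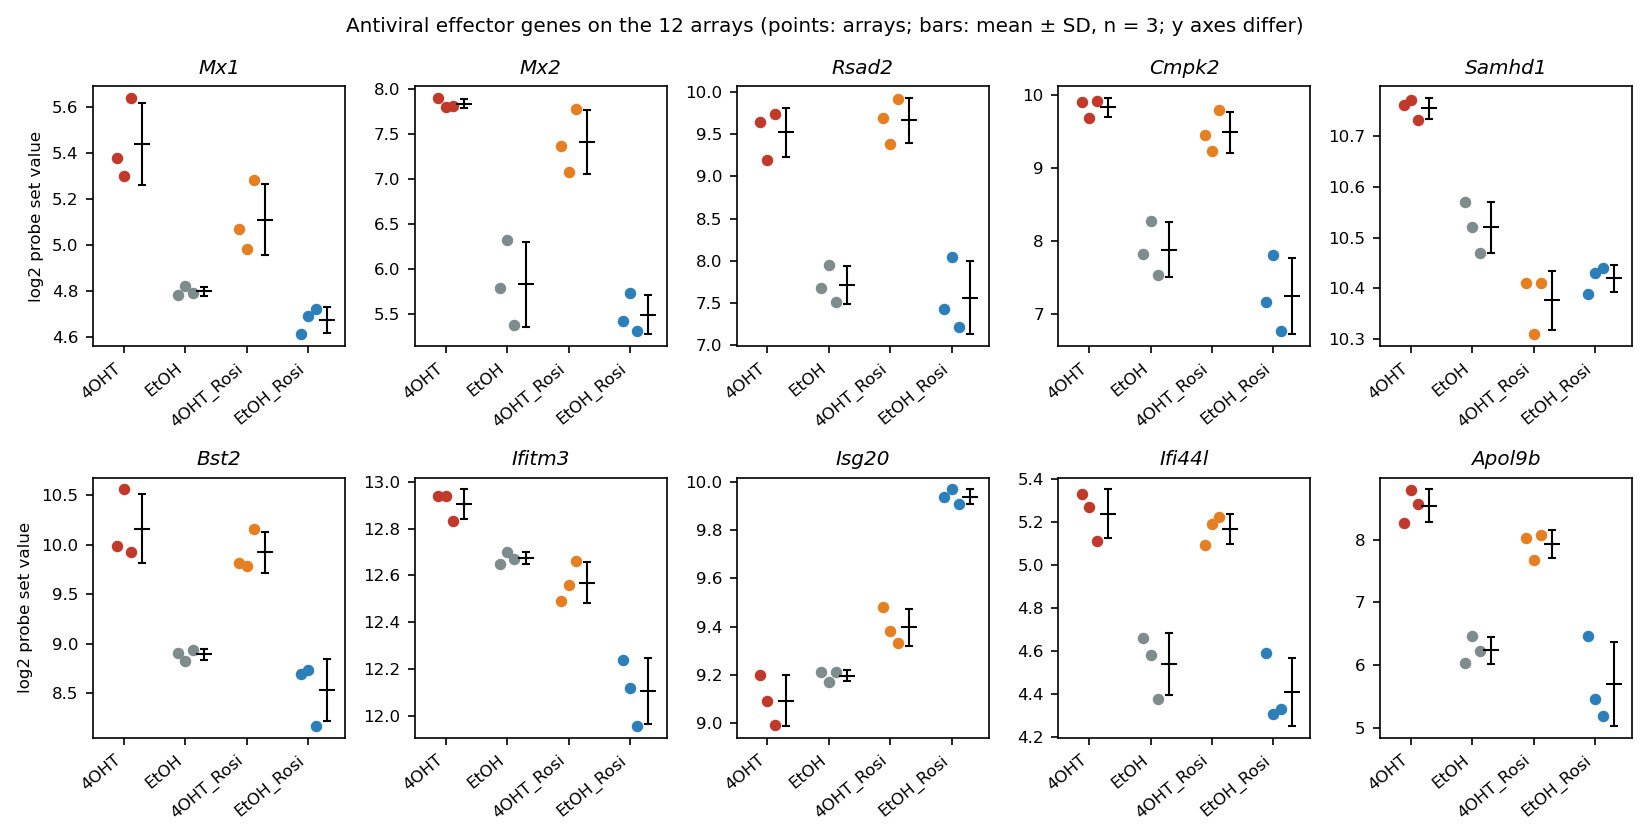
Log2 probe set values of the 10 antiviral effector genes (y axes, which differ between panels) on the arrays of the 4 groups. Points are arrays and bars are the mean ± SD of 3. In Mx2, Rsad2, Cmpk2, Bst2 and Apol9b the 4OHT and 4OHT_Rosi arrays lie above both ethanol groups, while in Isg20 the EtOH_Rosi arrays are highest.

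The GTPase genes Mx1 and Mx2 lie on chromosome 16 and are annotated by RefSeq for the C57BL/6J reference as transcribed pseudogenes, so their levels here are of transcripts. Mx2 had log2 values of 7.90, 7.80 and 7.81 in 4OHT, against 5.78, 6.32 and 5.37 in EtOH. With rosiglitazone it had 7.36, 7.08 and 7.78 in 4OHT_Rosi, against 5.42, 5.73 and 5.31 in EtOH_Rosi. The treated arrays were higher in both settings with no overlap, by 2.01 ± 0.21 on the log2 scale without rosiglitazone (limma difference ± SE, adjusted p = 0.000125, 4.04-fold) and by 1.92 ± 0.21 with it (adjusted p = 9.04e-05). Mx1 had a mean at percentile 20.7 of all genes, low in the array range. It had 5.38, 5.30 and 5.64 in 4OHT, against 4.78, 4.82 and 4.79 in EtOH, and 5.07, 4.98 and 5.28 in 4OHT_Rosi, against 4.61, 4.69 and 4.72 in EtOH_Rosi. Its treated arrays were also higher without overlap, by 0.64 ± 0.09 (adjusted p = 0.0011) and 0.44 ± 0.09 (adjusted p = 0.00927). Whether either probe set also takes up the other transcript was not tested.

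Rsad2 encodes viperin, a radical SAM enzyme that turns CTP into a chain terminator of viral RNA synthesis, and Cmpk2, a mitochondrial nucleoside monophosphate kinase, is its neighbour on chromosome 12. Rsad2 had log2 values of 9.64, 9.19 and 9.74 in 4OHT, against 7.68, 7.95 and 7.51 in EtOH, and 9.69, 9.39 and 9.92 in 4OHT_Rosi, against 7.43, 8.05 and 7.21 in EtOH_Rosi. Cmpk2 had 9.90, 9.68 and 9.91 in 4OHT, against 7.83, 8.28 and 7.53 in EtOH, and 9.45, 9.23 and 9.79 in 4OHT_Rosi, against 7.17, 7.81 and 6.77 in EtOH_Rosi. Every treated array of both genes stood more than 1 log2 unit above every ethanol array of the same rosiglitazone setting. Rsad2 rose by 1.81 ± 0.21 without rosiglitazone (adjusted p = 0.000257, 3.51-fold) and by 2.10 ± 0.21 with it (adjusted p = 4.31e-05, 4.30-fold). The rises of Cmpk2 were 1.95 ± 0.23 (adjusted p = 0.000382) and 2.24 ± 0.23 (adjusted p = 6.88e-05), at ranks 7 and 6 among the rises of all 22180 genes. Among the ethanol arrays both genes were highest in replicate 2 of each group, EtOH 2 and EtOH_Rosi 2.

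Samhd1, a phosphohydrolase that depletes deoxynucleotides, behaved otherwise. Its mean was at percentile 93.6 of all genes, and it spanned 0.46 log2 units over all 12. It had 10.76, 10.77 and 10.73 in 4OHT, against 10.57, 10.52 and 10.47 in EtOH, and 10.41, 10.31 and 10.41 in 4OHT_Rosi, against 10.39, 10.43 and 10.44 in EtOH_Rosi. The 4OHT arrays were above all others, and with rosiglitazone the groups overlapped. The rise without rosiglitazone was 0.23 ± 0.05 (adjusted p = 0.0276, 1.18-fold). It did not pass without EtOH 2 (0.0953), EtOH 3 (0.112), 4OHT 1 (adjusted p = 0.1), 4OHT 2 (0.102) or 4OHT 3 (0.0698). With rosiglitazone the difference was -0.04 ± 0.05 (adjusted p = 0.725, 95% interval -0.16 to 0.07). The difference between these effects was -0.28 ± 0.08 and did not pass (adjusted p = 0.115).

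Bst2 encodes tetherin, which holds budding virions at the cell surface. It had log2 values of 9.99, 10.56 and 9.93 in 4OHT, against 8.91, 8.83 and 8.94 in EtOH, and 9.82, 9.79 and 10.16 in 4OHT_Rosi, against 8.69, 8.73 and 8.17 in EtOH_Rosi. The treated arrays were higher in both settings, with rises of 1.27 ± 0.17 without rosiglitazone (adjusted p = 0.000781, 2.41-fold) and 1.39 ± 0.17 with it (adjusted p = 0.00023, 2.63-fold). Ifitm3, which blocks fusion of viruses in endosomes, had a mean at percentile 99.5 of all genes. It had 12.94, 12.94 and 12.83 in 4OHT, against 12.65, 12.70 and 12.67 in EtOH, and 12.49, 12.56 and 12.66 in 4OHT_Rosi, against 12.24, 12.12 and 11.96 in EtOH_Rosi. Its treated arrays lay above the ethanol arrays in both settings. With rosiglitazone it rose by 0.46 ± 0.07 (adjusted p = 0.00166), and the difference without rosiglitazone was 0.23 ± 0.07, which did not pass (adjusted p = 0.116, with a 95% interval, not adjusted for the number of genes, of 0.07 to 0.39).

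Isg20, an exonuclease that degrades single-stranded RNA, went the other way. It had log2 values of 9.20, 9.09 and 8.99 in 4OHT, against 9.21, 9.17 and 9.21 in EtOH. With rosiglitazone it had 9.48, 9.38 and 9.33 in 4OHT_Rosi, against 9.94, 9.97 and 9.91 in EtOH_Rosi. The groups overlapped without rosiglitazone, while with it all 3 treated arrays were lower. Isg20 fell by 0.54 ± 0.06 on the log2 scale with rosiglitazone (adjusted p = 0.000159, 1.46-fold lower), and the difference without it was -0.10 ± 0.06 (adjusted p = 0.489, 95% interval -0.24 to 0.03). The 4-hydroxytamoxifen effect thus differed by -0.44 ± 0.09 between the settings (adjusted p = 0.0403), the only interaction among the 10 members to pass, where 0.482% of all genes passed in this direction and 0.523% in the other. That call did not hold without EtOH 1, EtOH 2, EtOH 3, 4OHT 1, 4OHT 2, EtOH_Rosi 1, EtOH_Rosi 2, EtOH_Rosi 3, 4OHT_Rosi 2 or 4OHT_Rosi 3, each left out in turn (adjusted p from 0.0508 to 0.11), although the difference stayed between -0.49 and -0.39 whichever of the 12 arrays was left out.

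Apol9b, of the apolipoprotein L family, and Ifi44l, an interferon-induced gene related to Ifi44, are the remaining members. Apol9b had 8.27, 8.79 and 8.56 in 4OHT, against 6.03, 6.46 and 6.22 in EtOH, and 8.03, 7.67 and 8.08 in 4OHT_Rosi, against 6.46, 5.46 and 5.19 in EtOH_Rosi. It spanned 3.6 log2 units, the widest range of the 10, and EtOH_Rosi 1 lay a full log2 unit above the other arrays of its group. Its rises were 2.30 ± 0.25 without rosiglitazone (adjusted p = 0.000216, 4.94-fold), at rank 2 of all genes, and 2.22 ± 0.25 with it (adjusted p = 0.000135, 4.67-fold). Its close relative Apol9a, on a probe set of its own, rose by 1.42 ± 0.13 (adjusted p = 4.8e-05) and 1.44 ± 0.13 (adjusted p = 2.17e-05), and whether either probe set also takes up the other transcript was not tested. Ifi44l had a mean at percentile 17.1 of all genes. Its values were 5.33, 5.27 and 5.11 in 4OHT, against 4.66, 4.58 and 4.38 in EtOH, and 5.09, 5.19 and 5.22 in 4OHT_Rosi, against 4.59, 4.31 and 4.33 in EtOH_Rosi. These arrays did not overlap either, with rises of 0.70 ± 0.09 (adjusted p = 0.000703) and 0.76 ± 0.09 (adjusted p = 0.00023).

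**Figure D3:**
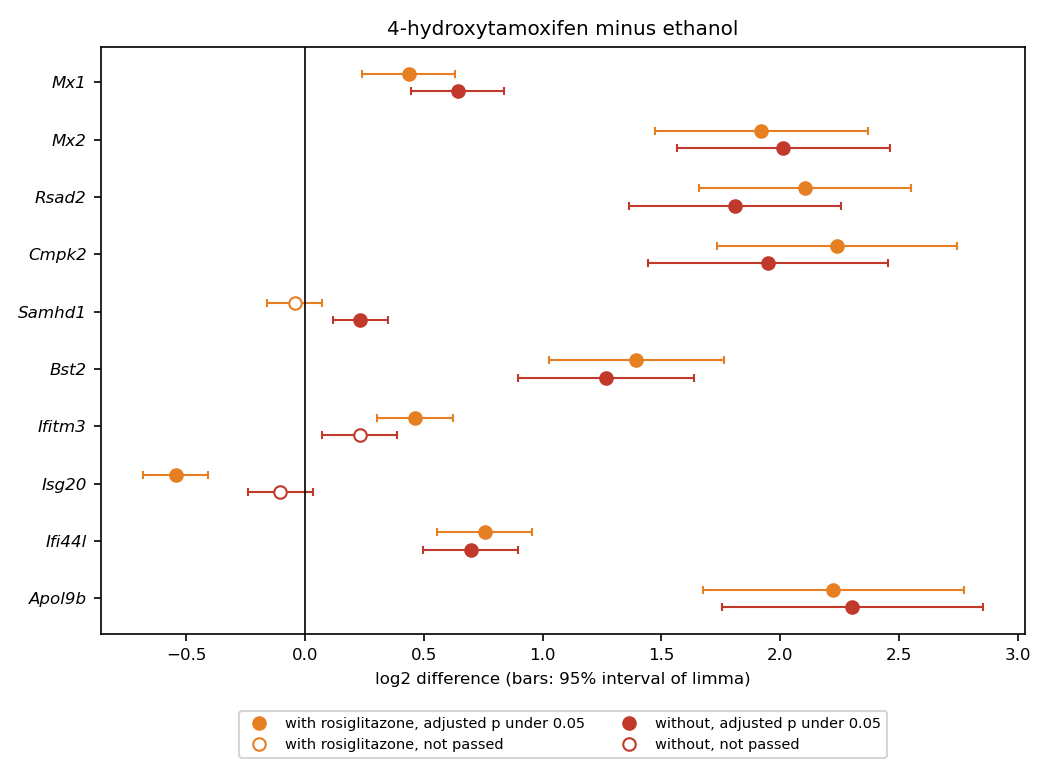
Log2 differences of 4-hydroxytamoxifen minus ethanol (x axis) for the 10 antiviral effector genes, with rosiglitazone (orange) and without (red). Bars are 95% intervals and filled points passed an adjusted p of 0.05. Mx2, Rsad2, Cmpk2, Bst2 and Apol9b lie beyond 1 in both settings, and Isg20 lies at -0.54 with rosiglitazone.

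**Figure D4:**
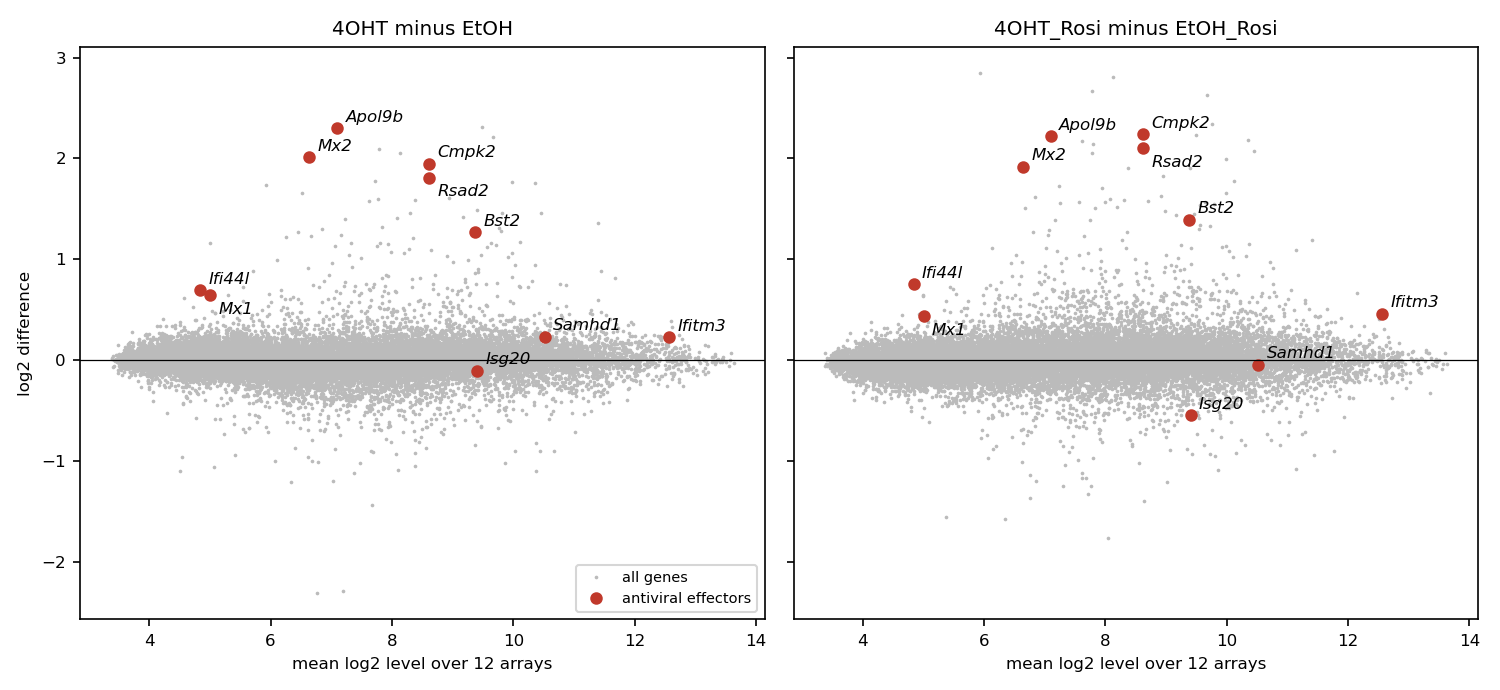
Log2 difference of 4-hydroxytamoxifen minus ethanol (y axes) against the mean log2 level over the 12 arrays (x axes) for all 22180 genes in grey and the 10 antiviral effector genes in red, without rosiglitazone (left) and with it (right). The 5 members with rises of at least 1 stand clear of most genes of like level, while Samhd1 and Isg20 lie within or below the bulk.

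For the other 9 members the difference between the 4-hydroxytamoxifen effects with and without rosiglitazone did not pass, and these differences ranged from -0.28 for Samhd1 to 0.29 for Rsad2. That range does not show equal effects: for Cmpk2 the 95% interval ran from -0.42 to 1.00, and for Mx2 from -0.73 to 0.54. For Samhd1 and Ifitm3 the intervals, not adjusted for the number of genes, excluded 0. They ran from -0.44 to -0.11 for Samhd1 and from 0.009 to 0.46 for Ifitm3 (difference 0.23 ± 0.10, limma adjusted p = 0.333).

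With rosiglitazone against none, Isg20 rose and Ifitm3 fell in both settings, and Mx1 and Samhd1 fell after 4-hydroxytamoxifen. After 4-hydroxytamoxifen 1 of the 10 rose and 3 fell (4OHT_Rosi against 4OHT), where 11.6% of all genes rose and 12.1% fell. After ethanol 1 rose and 1 fell (EtOH_Rosi against EtOH), where 14.4% of all genes rose and 16.3% fell. The member medians were -0.33 and -0.24, against 0 and 0.01 over all genes. Both comparisons use groups that also enter the 4-hydroxytamoxifen comparisons.

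Isg20 was the member that rose with rosiglitazone. It averaged 9.94 ± 0.03 in EtOH_Rosi and 9.20 ± 0.02 in EtOH (SD, n = 3 each), a rise of 0.74 ± 0.06 (adjusted p = 1.27e-06, 1.67-fold). After 4-hydroxytamoxifen it averaged 9.40 ± 0.08 in 4OHT_Rosi and 9.09 ± 0.11 in 4OHT, a rise of 0.30 ± 0.06 (adjusted p = 0.00298). Ifitm3 fell with rosiglitazone in both settings, by 0.33 ± 0.07 after 4-hydroxytamoxifen (adjusted p = 0.00427) and by 0.57 ± 0.07 after ethanol (adjusted p = 4.21e-05). Samhd1 fell by 0.38 ± 0.05 after 4-hydroxytamoxifen (adjusted p = 0.000152), and its difference after ethanol was -0.10 ± 0.05 (adjusted p = 0.199).

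Mx1 fell by 0.33 ± 0.09 with rosiglitazone after 4-hydroxytamoxifen (adjusted p = 0.0166), but not without 4OHT 3 (0.0793), 4OHT_Rosi 1 (0.0573) or 4OHT_Rosi 2 (adjusted p = 0.0761). Apol9b and Cmpk2 had negative differences that did not pass. For Apol9b these were -0.61 ± 0.25 after 4-hydroxytamoxifen (adjusted p = 0.107) and -0.53 ± 0.25 after ethanol (adjusted p = 0.143), and without EtOH_Rosi 1 both passed (adjusted p = 0.00971 for the first, through the shared estimate of spread, and 0.00109 for the second at a difference of -0.91). For Cmpk2 the difference after ethanol was -0.63 ± 0.23 (adjusted p = 0.0578), and it passed without EtOH 3 (0.0293) or EtOH_Rosi 2 (adjusted p = 0.00453). That of Mx2 after ethanol, -0.34 ± 0.21 (adjusted p = 0.27), passed without EtOH 3 alone (adjusted p = 0.0478). Rsad2 differed by 0.14 ± 0.21 after 4-hydroxytamoxifen (adjusted p = 0.7) and -0.15 ± 0.21 after ethanol (adjusted p = 0.662), with intervals of -0.30 to 0.59 and -0.60 to 0.30. Bst2 and Ifi44l passed in neither setting.

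Markers of several cell types moved in the same comparisons. Of all genes 12.1% fell and 11.6% rose in 4OHT_Rosi against 4OHT, and 16.3% and 14.4% in EtOH_Rosi against EtOH. All 5 progenitor and fibroblast markers fell in 4OHT_Rosi against 4OHT (median -1.10) and in EtOH_Rosi against EtOH (median -1.35). Endothelial markers fell in 5 of 6 (median -0.53) and in 6 of 6 (median -0.74). Kdr fell by 0.70 in EtOH_Rosi against EtOH (adjusted p = 2.8e-05). It was the marker that did not fall in 4OHT_Rosi against 4OHT (-0.09 ± 0.09, adjusted p = 0.54). Of 10 macrophage markers 6 (median -0.34) and 8 (median -0.54) fell, and 0 rose in either (limma; 0 higher unadjusted). Of 10 adipocyte markers 4 rose and 1 fell, and 6 rose and 1 fell, in the same order. Mean log2 levels of the progenitor and fibroblast list were 9.17 to 9.63 in 4OHT_Rosi, against 10.52 to 10.62 in 4OHT, and 9.15 to 9.45 in EtOH_Rosi, against 10.50 to 10.61 in EtOH. Those of the endothelial list were 8.64 to 8.91 in 4OHT_Rosi, against 9.32 to 9.43 in 4OHT, and 8.70 to 8.85 in EtOH_Rosi, against 9.39 to 9.50 in EtOH. The part of these cell types in the differences of Isg20, Ifitm3, Samhd1 and Mx1 was not tested, and in bulk arrays fewer cells of a type and less RNA per cell cannot be told apart.

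**Figure D5:**
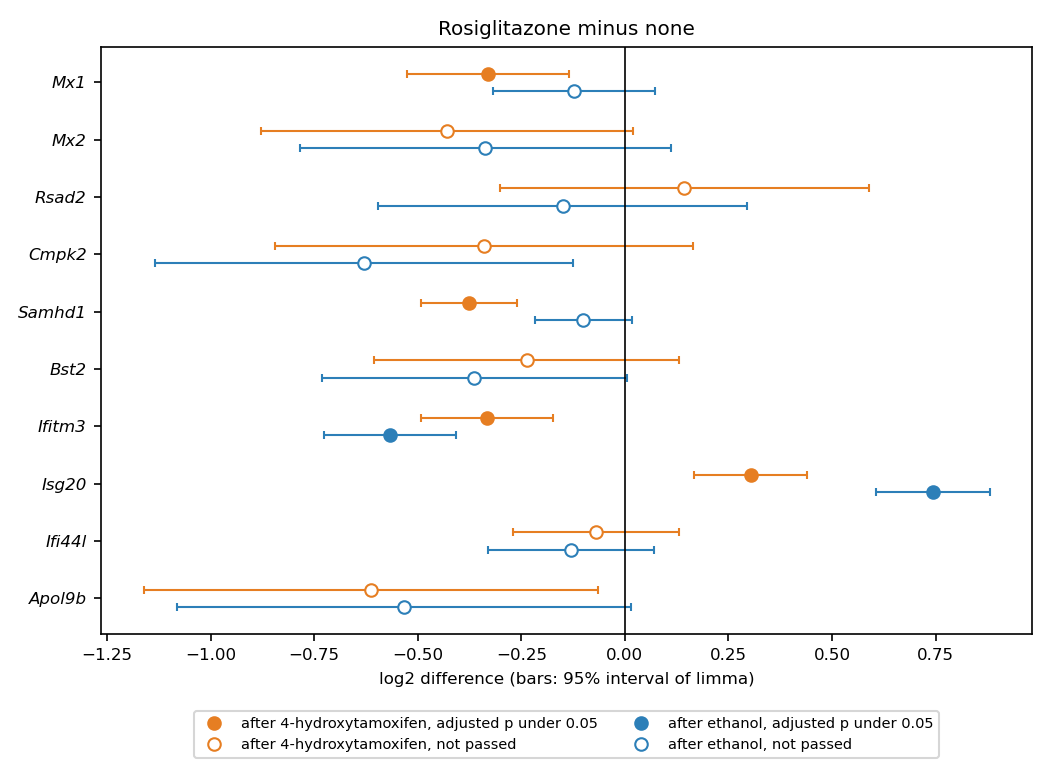
Log2 differences of rosiglitazone minus none (x axis) for the 10 antiviral effector genes, after 4-hydroxytamoxifen (orange) and after ethanol (blue). Bars are 95% intervals and filled points passed an adjusted p of 0.05. Isg20 is the only member with filled points above 0, at 0.30 and 0.74, and Ifitm3 is filled below 0 in both settings.

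Across the 12 arrays, 7 members followed the mean of the other 9 closely (Pearson r from 0.91 for Mx1 to 0.99 for Mx2). Ifitm3 had an r of 0.71, Samhd1 0.46 and Isg20 -0.66. The 12 arrays fall into 4 groups, so these coefficients hold the differences between groups as well as the spread within them. After the group means were taken out, Cmpk2 had the highest coefficient at 0.80 and Isg20 the lowest at -0.11. Of the rest of the 7, Mx2 then had 0.76 and Rsad2 0.62, while Bst2 had 0.44, Apol9b 0.32, Ifi44l 0.28 and Mx1 0.185. For these last 4, the close following thus came largely from the differences between groups. The genes outside the 10 whose values over the 12 arrays were most like the members' mean profile, among 11602 genes of at least median level in 1 group, were Slfn2 (r = 0.994), Gm12250 (r = 0.992), Oas2 (0.989), Ddx60 (0.986), Stat2 (0.984) and Parp14 (0.984). With the group means taken out, r was 0.92 for Slfn2, 0.82 for Stat2 and 0.80 for Oas2. It was 0.78 for Ddx60, 0.76 for Gm12250 and 0.72 for Parp14. All were higher in 4OHT than in EtOH, by 0.94 for Stat2 to 2.09 for Gm12250.

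The rest of the pathway was read from 4 lists. After 4-hydroxytamoxifen 2.13% of all genes rose and 1.79% fell without rosiglitazone, and 4.65% rose and 3.38% fell with it. Of the other antiviral interferon-stimulated genes 24 of 28 rose and 0 fell after 4-hydroxytamoxifen without rosiglitazone, and 25 rose and 0 fell with it (at an unadjusted p under 0.05, 0 were lower in either), with medians of 1.14 and 1.24. Among them were the RNA sensor Ifih1 (1.15 ± 0.09, adjusted p = 2.27e-05, and 1.33 ± 0.09 with rosiglitazone) and Oas3, a synthase of the oligoadenylates that activate RNase L (1.32 and 1.51). Of 13 receptor and signalling genes 5 rose without rosiglitazone and 4 with it, and none fell (1 was lower at an unadjusted p under 0.05 in each). They were Irf7, Stat2, the deconjugating enzyme Usp18 and Irf9 in both, and Irf1 (0.29 ± 0.07, adjusted p = 0.0434) without rosiglitazone. Irf9 rose by 0.47 ± 0.10 and 0.88 ± 0.10 (adjusted p = 0.0166 and 0.000123). Irf7 rose by 2.31 and 2.23, Usp18 by 1.75 and 2.18 and Stat2 by 0.94 and 1.08. The count of 5 was 3 when any 4OHT array, EtOH 1 or EtOH 3 was left out, and 1 gene fell in that comparison once 4OHT_Rosi 3 was left out. With rosiglitazone against none, 7 of the 13 fell after ethanol and 5 after 4-hydroxytamoxifen, and 0 rose (1 and 0 were higher unadjusted). Of the 28 other antiviral genes 14 fell and 1 rose after ethanol, and 4 fell and 1 rose after 4-hydroxytamoxifen. Of all genes 16.3% fell and 14.4% rose after ethanol, and 12.1% and 11.6% after 4-hydroxytamoxifen.

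None of the 15 interferon genes measured, type I, II and III, passed in any comparison (limma). At an unadjusted p under 0.05, 0 were higher and 0 lower in 4OHT against EtOH, 0 and 1 in 4OHT_Rosi against EtOH_Rosi, 1 and 0 in 4OHT_Rosi against 4OHT, and 0 and 0 in EtOH_Rosi against EtOH. The gene higher in 4OHT_Rosi than in 4OHT was Ifne (0.18 ± 0.06, adjusted p = 0.0557), and without EtOH_Rosi 2, 1 interferon gene passed as higher there. Ifnb1, the gene of interferon beta, averaged 4.25 in 4OHT and 4.28 in EtOH, and 4.35 in 4OHT_Rosi and 4.38 in EtOH_Rosi. These values are dim, so a small change may not have been measurable. Of 25 relatives of the members, chosen by family with earlier results known, 3 rose without rosiglitazone (Apol9a, Apol6 and Ifitm6). With it 2 rose (Apol9a and Apol6) and 3 fell. Of all genes 2.13% rose without rosiglitazone, and 4.65% rose and 3.38% fell with it. The 3 that fell were the dynamin gene Dnm1 (-0.47 ± 0.08, adjusted p = 0.00308), Hddc3 (-0.42 ± 0.08, adjusted p = 0.00451) and Apol8 (-0.36 ± 0.08, adjusted p = 0.0144). The count of 2 became 1 without EtOH 2, 4OHT 2, EtOH_Rosi 1, EtOH_Rosi 3, 4OHT_Rosi 1, 4OHT_Rosi 2 or 4OHT_Rosi 3, each left out in turn. Ifitm1 and Ifitm2, next of kin of Ifitm3, passed in neither comparison (adjusted p from 0.397 to 0.943), and nor did Cmpk1 (0.867 and 0.817).

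Markers of other cell types were also read after 4-hydroxytamoxifen, and their part in the members' differences was not tested. Of all genes 2.13% rose and 1.79% fell in 4OHT against EtOH, and 4.65% and 3.38% in 4OHT_Rosi against EtOH_Rosi. Mean log2 levels of 10 macrophage markers were 8.85 to 9.06 in 4OHT, against 9.00 to 9.27 in EtOH, and 8.61 to 8.68 in 4OHT_Rosi, against 8.52 to 8.65 in EtOH_Rosi. Of these markers 1 rose and 2 fell in 4OHT against EtOH, with a median of -0.25, and at an unadjusted p under 0.05, 1 was higher and 6 were lower. In 4OHT_Rosi against EtOH_Rosi 1 rose and 1 fell (3 higher and 2 lower unadjusted, median -0.02). The rise was in both cases Fcgr1, an Fc receptor gene that interferons also induce (0.54 and 0.96). Lyz2 fell in both (-0.24 and -0.20), and Itgam fell in 4OHT against EtOH (-0.63 ± 0.12, adjusted p = 0.0111). These counts moved when single arrays were left out, except the rise in 4OHT_Rosi against EtOH_Rosi. Plasmacytoid dendritic cells, which carry Bst2 on their surface, were read from 8 markers whose mean was 6.01 to 6.09 in 4OHT, against 6.05 to 6.12 in EtOH, and 6.02 to 6.14 in 4OHT_Rosi, against 6.09 to 6.15 in EtOH_Rosi. Their defining marker Siglech averaged 5.14 in 4OHT and 5.15 in EtOH, and 5.14 in 4OHT_Rosi and 5.19 in EtOH_Rosi. Of these 8, Cox6a2 alone passed, lower in both (-0.39 and -0.38), and each call was lost when single arrays were left out. Lymphocyte markers (7 measured) averaged between 5.27 and 5.43 on every array, and 0 passed in either comparison (limma; at an unadjusted p under 0.05, 0 higher and 1 lower without rosiglitazone, 0 and 0 with it). Of 10 adipocyte markers 1 rose and 1 fell in 4OHT against EtOH (4 higher and 1 lower unadjusted), and the rise was lost without EtOH 2, EtOH 3 or any 4OHT array. In 4OHT_Rosi against EtOH_Rosi 0 of them passed (limma; 0 higher and 1 lower unadjusted).

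Of 6 endothelial markers 0 passed in 4OHT against EtOH (limma; 0 higher and 1 lower unadjusted). In 4OHT_Rosi against EtOH_Rosi Kdr alone passed, higher by 0.49. The shares of all genes given above for these comparisons apply here too. Of 5 progenitor and fibroblast markers Pdgfra fell (-0.53) and Pi16 rose (1.02) in 4OHT against EtOH. In 4OHT_Rosi against EtOH_Rosi Pdgfra fell (-0.39) and none rose. In that comparison the list's count of falls was 0 without EtOH_Rosi 1, 4OHT_Rosi 1 or 4OHT_Rosi 2, and its count of rises was 1 without EtOH_Rosi 1 and 2 without 4OHT_Rosi 1.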

How the data were processed

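Total RNA of 12 adipocyte samples was hybridised to Affymetrix arrays, 3 for each of the groups 4OHT, EtOH, 4OHT_Rosi and EtOH_Rosi. The authors deposited log2 values for 41345 probe sets, made with Affymetrix Expression Console per the submitters' processing notes. Version, summary method and normalization are unknown here. Of the probe sets, 23521 had 1 gene symbol, 1814 several and 16010 none, and symbols were updated by Entrez ID for 23328. The brightest probe set per gene by mean over the 12 arrays was kept, which left 22180 genes.

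All 12 arrays entered 1 fit in limma 3.58.1 (R 4.3.3, lmFit and eBayes) with a mean for each group, at 8 residual and 5.07 prior degrees of freedom. A gene passed at a Benjamini-Hochberg adjusted p under 0.05 over all 22180 genes, with no fold minimum. The number of arrays limits the precision. No arrays held identical values. Over all genes, same-numbered arrays did not deviate together (correlations of deviations from group means between -0.24 and 0.08), so the numbers were not used as pairs. Some members did keep the same order of replicates, namely Mx1, Rsad2, Cmpk2 and Isg20 in 4OHT and 4OHT_Rosi. Mx2, Rsad2 and Cmpk2 did so in EtOH and EtOH_Rosi. Pairing within these groups alone was not tested, and a block common to all groups was run as an alternative.

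The members and lists were chosen with earlier results of these data known. Beside the members, the rule named up to 4 genes of each other list with the smallest p after 4-hydroxytamoxifen and the 6 genes most like the members' mean profile. Irf1, Ifnb1, Ifne, Hddc3, Apol8, Ifitm1, Ifitm2, Cmpk1, Adipoq, Fabp4 and Siglech were named after their values were seen. Promoter windows are from RefSeq, GRCm38.p6. The alternatives changed the pairing, the arrays fitted, the variance model, array weights, normalization (quantile or median), the filter on dim genes, the treatment of several probe sets and the arrays left out. Leave-one-out counts of the lists were chosen after seeing the data. The steps were tested on simulated data.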

Additional observations from a re-analysis of the deposited data

Results flagged for a closer look

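The effect of 4-hydroxytamoxifen on Isg20 differed between the settings by a test of the difference itself: the effect with rosiglitazone minus that without was -0.44 on the log2 scale (limma, adjusted p = 0.0403 over all genes). All 3 arrays of 4OHT_Rosi lay below the 3 of EtOH_Rosi, while 4OHT and EtOH overlapped. The call was lost without each of 10 of the 12 arrays in turn (adjusted p from 0.0508 to 0.11), with the replicate number as a block (0.0599), with quantile normalization (0.0526) and with all probe sets (0.115). Groups of 3 arrays were not tested for single arrays that stand apart.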

How the results depend on the processing

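No called member difference changed direction under any alternative run. Members higher after 4-hydroxytamoxifen numbered 6 to 9 of those measured without rosiglitazone and 6 to 8 with it, where the 6 come from the filters on dim genes, which left 8 members. Leaving out 1 array gave 7 to 8 and 8 to 8. With the replicate number as a block the Isg20 interaction did not pass (adjusted p = 0.0599), so members with a lower interaction numbered 0, and the Samhd1 rise in 4OHT was lost (0.0638). That interaction count was also 0 with quantile normalization (0.0526) and with all probe sets (0.115), and 2 with the intensity trend and with the filter at the 50th percentile, where Samhd1 joined (0.0379 and 0.0472). It ranged from 0 to 1 without single arrays. Members lower in EtOH_Rosi than in EtOH numbered 2 with array weights and with both filters, through Cmpk2 (0.0272, 0.0479 and 0.0375), and 1 to 3 without single arrays. Members lower in 4OHT_Rosi than in 4OHT numbered 2 to 4 without single arrays. Fitting only those 2 groups lost Mx1 (0.0559) and gained Apol9b (0.0146), all probe sets lost Samhd1 in 4OHT against EtOH (0.0568), and Ifitm3 passed there with the intensity trend (0.0349) and with array weights (0.0219). Signs that turned were of differences that had not passed. The Bst2 interaction was -0.0078 with array weights. Without single arrays, interactions ranged from -0.053 to 0.33 for Bst2, -0.34 to 0.13 for Mx2, -0.0033 to 0.15 for Ifi44l and -0.34 to 0.30 for Apol9b, and Rsad2 from -0.023 to 0.28 in 4OHT_Rosi against 4OHT and -0.39 to 0.027 in EtOH_Rosi against EtOH. The causes were not tested. Of the 28 other antiviral genes 14 fell and 1 rose in EtOH_Rosi against EtOH, where 16.3% of all genes fell and 14.4% rose. The count of 14 was 7 without EtOH 2 and 9 without EtOH_Rosi 3.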
